A study of Mus musculus with 2 samples.

Results

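The mouse genes Pax1 to Pax9 were described in a list of H3K27me3 peaks from rib chondrocytes. The members were the lines of the annotated peak table whose gene symbol was one of these 9, and all 9 were found, out of 4987 gene symbols with a peak. Primary chondrocytes had been released from the rib cartilage of wild-type newborn CD1 mice and cultured overnight, with no genetic change or treatment in either library. Chromatin was cut with an enzyme, and 1 library of chromatin precipitated with an antibody against histone H3 trimethylated at lysine 27 (H3K27me3) was set against 1 library of input DNA, made from the same kind of chromatin with no antibody step. The antibody tag of each library fits the title of the other one, and the libraries were taken by their titles. With 1 library on each side there was no replicate, so no value below has a spread between samples, no test was possible, and differences between genes describe this 1 peak list.

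Pax genes encode transcription factors that bind DNA through a paired domain and set the identity of tissues in the embryo. Vertebrate Pax genes fall into subfamilies of close relatives: Pax1 and Pax9 in the sclerotome, the part of the somite that gives rise to vertebrae and ribs; Pax2, Pax5 and Pax8 in kidney, thyroid, B cells and the border of midbrain and hindbrain; Pax3 and Pax7 in muscle progenitors, neural crest and dorsal neural tube; Pax4 and Pax6 in the endocrine pancreas, and Pax6 also in eye and brain. H3K27me3 is written by Polycomb repressive complex 2 (PRC2) and is found over genes for developmental regulators in cells where these genes are silent. Chondrocytes of the ribs descend from the sclerotome, so Pax1 and Pax9 act in the lineage that was sampled and the other members act elsewhere.

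Every Pax gene carried the mark. The annotation joined 54 peaks to the 9 genes, at least 1 to each, and a peak covered the 5′ end of every one of them. Together these peaks measured 440.5 kb, from 10.6 kb at Pax8 to 94.1 kb at Pax2. Among 21900 protein-coding genes, 20.7% had a peak that the authors' annotation joined to them (a peak within 5 kb of the gene), 14.2% had one over the gene body and 4.45% had one over the 5′ end. The 9 of 9 members that met each of these conditions have a 95% Wilson interval with a lower end of 70.1%, which covers counting error only. The members are a fixed family and not a random draw, so the interval is no test against these shares. Because the library came from many cells, a mark present in some of the cells and a weaker mark present in all of them cannot be told apart.

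The starts of the Pax genes were compared with the peaks through RefSeq's promoter windows on GRCm38.p6. The table held 10 starts for 7 members, and 9 of the 10 lay under a peak, against 4.26% of 21263 starts of protein-coding genes. The exception was the start this table gives for Pax1, which fell between 2 peaks. The promoters of 4 genes are shown because they span the range of marking in the family, from the gap at Pax1 through the widest stretch of marked chromatin (Pax2) and a gene with a single wide peak (Pax6) to the shortest marked stretch (Pax8). Each line gives the 250 bases before the start, 5′ to 3′ on the strand of the gene, with CpG dinucleotides in capitals.
Pax1: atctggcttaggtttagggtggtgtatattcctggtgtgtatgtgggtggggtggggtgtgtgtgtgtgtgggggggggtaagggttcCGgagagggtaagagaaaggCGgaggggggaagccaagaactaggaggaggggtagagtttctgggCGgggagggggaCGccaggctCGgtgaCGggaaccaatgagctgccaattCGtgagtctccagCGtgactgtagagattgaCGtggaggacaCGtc
Pax2: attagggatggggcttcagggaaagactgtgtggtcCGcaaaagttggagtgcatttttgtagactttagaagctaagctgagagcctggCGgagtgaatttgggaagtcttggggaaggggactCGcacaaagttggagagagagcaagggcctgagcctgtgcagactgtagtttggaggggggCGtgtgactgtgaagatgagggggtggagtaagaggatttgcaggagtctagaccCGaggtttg
Pax6: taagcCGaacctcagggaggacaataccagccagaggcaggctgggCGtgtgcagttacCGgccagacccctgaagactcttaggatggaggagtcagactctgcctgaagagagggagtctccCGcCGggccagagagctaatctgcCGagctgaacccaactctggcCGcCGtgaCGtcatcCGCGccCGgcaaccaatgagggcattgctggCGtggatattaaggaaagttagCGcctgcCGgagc
Pax8: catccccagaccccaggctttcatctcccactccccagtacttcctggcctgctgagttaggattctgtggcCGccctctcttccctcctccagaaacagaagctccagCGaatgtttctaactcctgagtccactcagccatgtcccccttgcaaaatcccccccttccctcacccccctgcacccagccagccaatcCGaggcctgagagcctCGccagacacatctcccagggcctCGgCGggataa
The Pax1 window is chr2:147364744-147364993 on the plus strand, and the Pax2 window is chr19:44746351-44746600 on the plus strand. The Pax6 window is chr2:105668646-105668895 on the plus strand, and the Pax8 window is chr2:24475600-24475849 on the minus strand. The Pax1 window lies inside Pax1 both in the deposited record and in the RefSeq gene table, which start upstream of it, whereas the other 3 windows lie outside their gene records or at their edge.

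The windows differed in their number of CpG dinucleotides. Pax1 had 10, the upstream start of Pax2 had 5, the upstream start of Pax6 had 15 and Pax8 had 6. Of the starts that are not printed, those of Pax2 further downstream had 20 and 25, Pax5 had 19, the inner start of Pax6 had 15, Pax7 had 13 and Pax9 had 7. The median over all protein-coding starts was 10, both for those under a peak and for those outside peaks. A GC box, spelled GGGCGG and searched on both strands, occurred in 6 of the 10 Pax windows and in 42.6% of all windows. The letters CCAAT occurred in 3 of 10 on either strand and in 35.4% of all windows, and TATAAA in none of the 10 and in 11.6% of all. A GC box contains a CpG, and adjoining matches of different motifs may share letters. A match describes the sequence only.

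**Figure D1:**
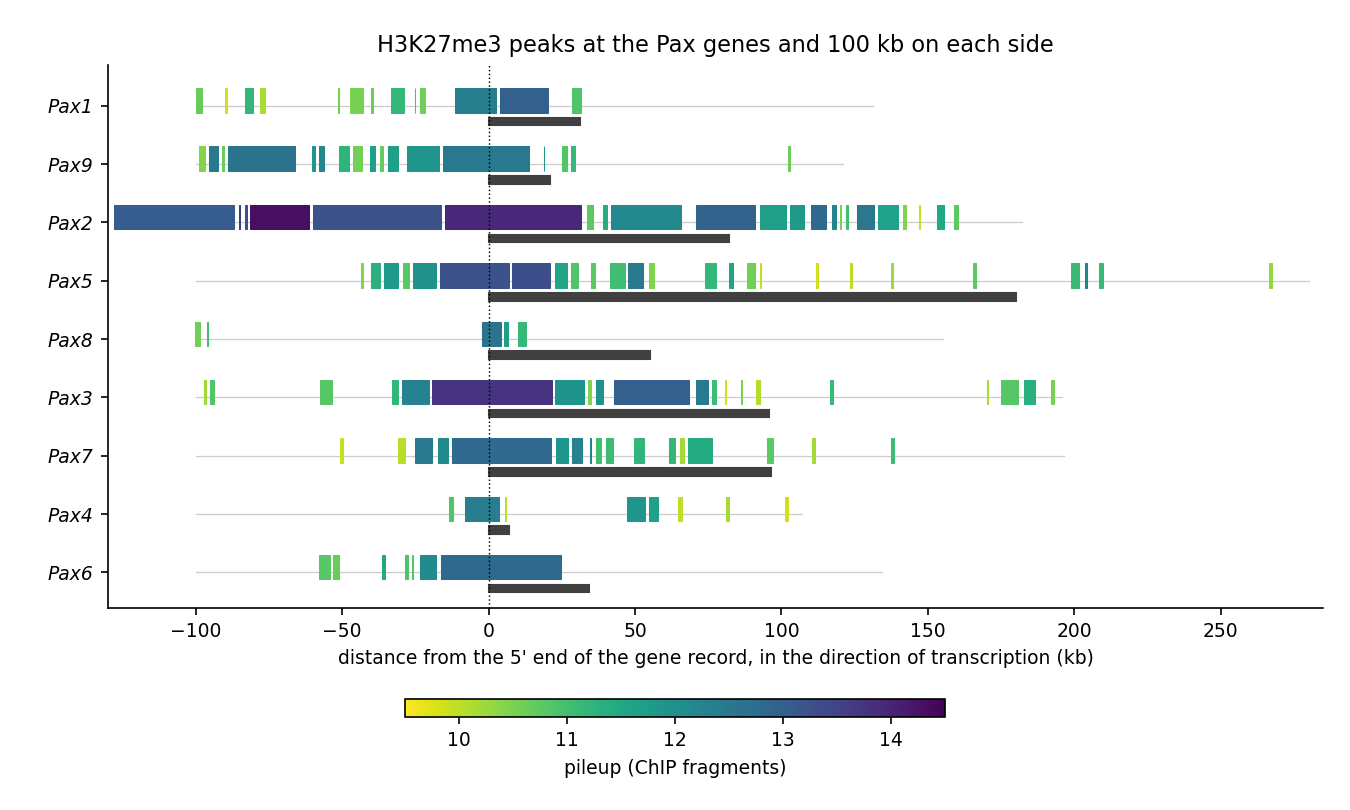
Peaks of the H3K27me3 library at each Pax gene and 100 kb on either side, drawn against the distance from the 5′ end of the gene record in kb, with the gene as a dark bar under its peaks and the colour giving the pileup in ChIP fragments. A peak crosses the 5′ end of all 9 genes, the marked chromatin of Pax2 runs on upstream for over 100 kb, and the 3 peaks joined to Pax8 end within 12.9 kb of its 5′ end.

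Pax1 is needed for the vertebral bodies and discs. Its 3 peaks summed to 33.8 kb. The peak over the 5′ end of the gene record (chr2:147350464-147364539) was 14.1 kb long with a pileup (the depth of ChIP fragments, averaged along the peak) of 12.36 and a fold enrichment over input of 3.46. The second peak (chr2:147365799-147382335), inside the record, was 16.5 kb long with a pileup of 12.99 and a fold enrichment of 3.60. The third, of 3.18 kb with a pileup of 10.87, lay over the 3′ end of the record.

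The 2 large Pax1 peaks were separated by 1259 bp, and the start that the promoter table gives at position 147364994 lay in this gap, 455 bp from the upstream peak and 805 bp from the downstream one. The RefSeq gene table starts Pax1 further upstream, at 147361930, which is under the 14.1-kb peak. The shortest gap between any neighbouring peaks of the list was 1177 bp and the median was 6756 bp, and the gap at Pax1 was one of 714 gaps (3.69% of 19339) of this length or shorter. Of the protein-coding starts, 138 (0.649%) were likewise outside peaks with a peak within 1 kb on each side. Pax1 was also the only member whose longest peak did not cover the 5′ end of its record. In the other 8 members it did, against 17.8% of the 4535 protein-coding genes with a peak, not all of which had a peak over the 5′ end.

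The gene record used for Pax1 decides how much of it is called marked. The deposited record is 31.4 kb long, of which 70.6% lay under peaks. The RefSeq gene table gives a gene of 13.1 kb that ends 18.2 kb earlier, and 90.4% of it lay under peaks. The third peak is outside this shorter gene.

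Pax9, the other sclerotome member, is required for limb, tooth and skull structures. It had 3 peaks that summed to 31.4 kb, and the sum at Pax1 was 1.08 times as large. A single peak of 29.4 kb (chr12:56676124-56705497) began 15.6 kb before the 5′ end and ended 13.7 kb into the gene, with a pileup of 12.48 and a fold enrichment of 3.502. The other 2 were a 308-bp peak inside the gene, pileup 11.88, and a 1.71-kb peak downstream of it, pileup 10.85. Over the 21.1 kb of the gene, 66.7% lay under peaks.

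Upstream of Pax9 the mark went on. In the 100 kb before the gene 71.1% of bases lay under peaks, including 12 peaks that the annotation did not join to Pax9 and that summed to 55.4 kb. The longest of these, 22.8 kb with a pileup of 12.60, covered the whole of Nkx2-9, which encodes a homeobox transcription factor of the ventral neural tube. Downstream, 3.92% of the 100 kb after the gene lay under peaks. Slc25a21, a gene for a mitochondrial carrier that overlaps the Pax9 locus, shared the 2 smaller Pax9 peaks but had 7.72% of its length under peaks. At Pax1 the share was 30.1% upstream and 0.172% downstream, and the upstream flank held stretches of Nkx2-2os, a non-coding RNA named for its neighbour Nkx2-2.

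Pax2, which is needed for kidney, eye and inner ear, was the most extensively marked member. Its 5 joined peaks summed to 94.1 kb, which ranked 17 among the 4987 symbols. The peak over the 5′ end (chr19:44741023-44787559) measured 46.5 kb and had the highest pileup of the 54 peaks, 13.94, with a fold enrichment of 3.73. A 23.8-kb peak inside the gene had a pileup of 12.15 and a 20.3-kb peak over the 3′ end had a pileup of 12.92. The remaining 2 peaks were 2.07 and 1.41 kb long with pileups of 10.77 and 11.43. Of the 82.2-kb gene, 85.4% lay under peaks, the largest share of the 9 deposited records.

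The reach of 5 kb in the annotation left much of the marked chromatin around Pax2 out. Within 100 kb, 5 more peaks lay upstream and 12 more downstream, counting those that reach into this span. The 5 upstream peaks summed to 105.8 kb, with lengths of 41.0, 0.475, 0.766, 20.1 and 43.5 kb in order towards the gene, and the 20.1-kb peak reached a pileup of 14.31, higher than any peak joined to a Pax gene. Peaks separated by at most 2 kb were joined into runs. The run that holds the 5′ end of Pax2 was 196.9 kb long, made of 11 peaks that covered 92.6% of it, and it was the longest of the 14913 runs in the list. With joining over up to 5 kb it was 238.5 kb long and ranked 3 of 10770.

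Other transcripts lay under the Pax2 peaks as well. The non-coding RNA 1700039E22Rik was wholly under the 20.3-kb peak, and the micro-RNA gene Mir6405, inside Pax2, was wholly under the 23.8-kb peak. The micro-RNA gene within Pax5, Mir5120, was not under a peak. Their mature sequences, with bases 2 to 8 (the seed, which pairs with target messages) in capitals, do not share a seed.
mmu-miR-6405: gUGGGAAGcagugggaagcagug
mmu-miR-5120: uUUGGGGCuguggugccaccagc

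Pax5, the regulator that commits lymphoid progenitors to B cells, is the longest member at 180.3 kb and had the most peaks, 16. They summed to 67.5 kb. The mark was concentrated at the 5′ end, where a 23.6-kb peak (chr4:44704605-44728215) with a pileup of 13.24 was followed after a gap of 1.31 kb by a 12.8-kb peak with a pileup of 13.30. The other 14 peaks measured 0.502 to 5.24 kb, with pileups from 9.86, which is the lowest value in the whole list, to 12.46. Peaks covered 28.2% of the gene, and beyond 93.1 kb from the 5′ end the gene held 4 peaks of 0.676 to 1.04 kb.

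Pax8, which specifies the thyroid and acts beside Pax2 in the kidney, had the least marking. Its 3 peaks were 6.47, 1.20 and 2.96 kb long from the 5′ end inwards, with pileups of 12.60, 11.70 and 11.15, and they all lay within 12.9 kb of the 5′ end. The 5′ peak (chr2:24471437-24477909) reached 2.31 kb upstream of the gene, whereas the 5′ peak began 8.20 to 19.3 kb upstream in the other 8 members. Of the 55.05-kb gene, 15.1% lay under peaks. Upstream and downstream 100 kb were 4.07% and 0% covered. Within this subfamily the summed length at Pax2 was 8.85 times that at Pax8, with a gene 1.49 times as long, and the pileup averaged over the peaks by length differed by 1.07 fragments (13.16 and 12.09).

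Pax3 and Pax7, which act in muscle progenitors and neural crest, are nearly equal in length, 95.9 and 96.5 kb. Pax3 had 10 peaks with a sum of 86.9 kb and Pax7 had 11 with a sum of 62.8 kb, a ratio of 1.38. The 5′ peak of Pax3 (chr1:78175596-78216401) was 40.8 kb long with a pileup of 13.75 and the highest fold enrichment of the 54 peaks, 3.77. That of Pax7 (chr4:139812173-139845988) was 33.8 kb long with a pileup of 12.80. Pax3 had a second wide peak deep in the gene, 25.4 kb long, 42.9 to 68.3 kb from the 5′ end, with a pileup of 12.99. At the same distance Pax7 held 3 peaks of 1.44 to 3.39 kb with pileups of 10.19 to 11.23, and an 8.04-kb peak with a pileup of 11.44 began at 68.3 kb. Peaks covered 70.5% of Pax3 and 51.3% of Pax7.

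Pax6, the eye and forebrain regulator, had 1 peak of 41.2 kb (chr2:105652522-105693700), with a pileup of 12.82 and a fold enrichment of 3.61. It began 16.4 kb upstream of the gene, covered the first 24.8 kb without a break and stopped 9.46 kb before the end of the record. No peak lay in the 100 kb downstream. Elp4, a gene for a subunit of the elongator complex, overlaps the end of the Pax6 record and spans the rest of these 100 kb. Elp4 was joined to the Pax6 peak only as a downstream neighbour, and 0% of it lay under peaks. The antisense RNA Pax6os1 shared the peak over its own 5′ end, with 23.7% of its length under peaks, and the non-coding RNA Paupar, 7.55 kb upstream of Pax6, was wholly covered. Over the 34.3-kb record 72.4% was covered, and 84.0% of the shorter RefSeq gene.

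Pax4, a regulator of insulin-producing cells, is the shortest member at 7.02 kb. An 11.8-kb peak (chr6:28445769-28457550) over the 5′ end, with a pileup of 12.40 and a fold enrichment of 3.45, carried 96.7% of its summed 12.2 kb. The other peak, of 396 bp near the 3′ end with a pileup of 9.99, was shared with the actin-bundling gene Fscn3. Zfp800, a zinc finger gene 44.3 kb away on the downstream side, had 10 peaks of its own with a sum of 19.9 kb.

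**Figure D2:**
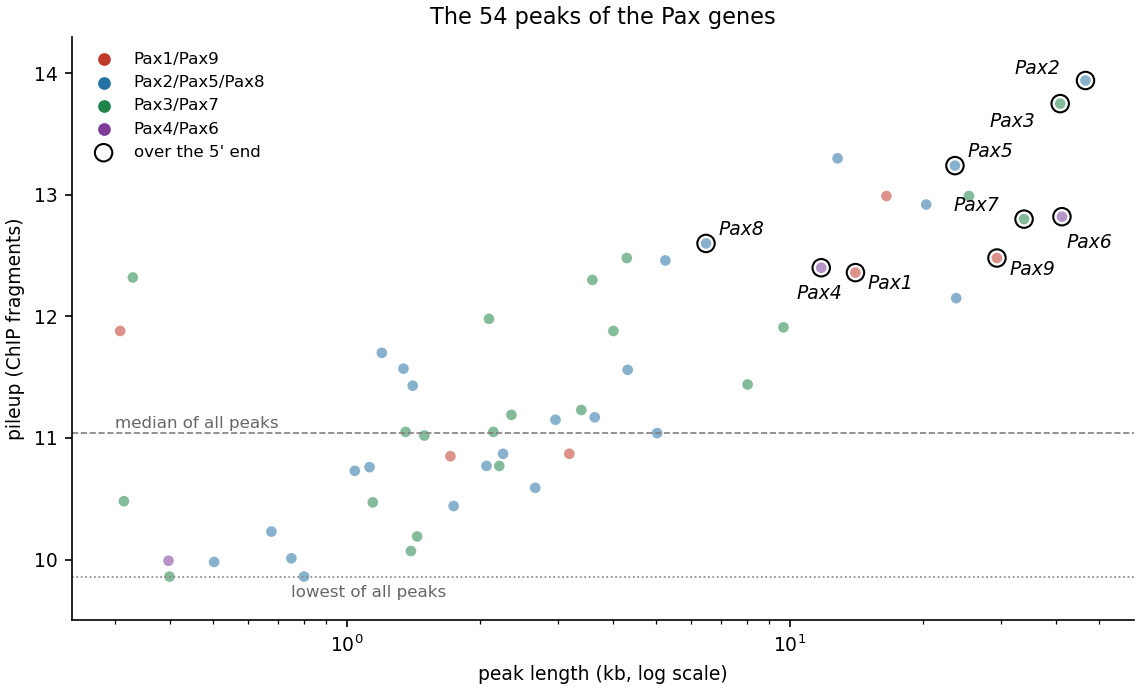
Each of the 54 peaks joined to a Pax gene, by its length in kb on a log axis and its pileup in ChIP fragments, coloured by subfamily, with the peaks over a 5′ end circled and named. The circled peaks sit between pileups of 12.36 and 13.94, above the median of 11.04 over all peaks, and the lowest uncircled ones lie at the list's lowest pileup of 9.86.

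The wide peaks carried most of the marking in the family. The 13 peaks of at least 10 kb held 77.2% of the summed length, and the 9 peaks over 5′ ends held 56.2%. By position, 41 of the 54 peaks were inside a gene, 9 over a 5′ end, 3 over a 3′ end and 1 downstream. The median peak of the family was 2.51 kb long, against 1.27 kb over all 19359 peaks, and the median pileup was 11.33 against 11.04. A peak of at least 10 kb was joined to 8 of the 9 members, all but Pax8, against 2.63% of protein-coding genes.

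Stricter thresholds removed some members. A peak whose averaged q-value was no higher than 0.01 was present at 8 of 9, all but Pax8, whose lowest value was 0.0112, against 5.9% of protein-coding genes. A fold enrichment of at least 3.5 was reached at 7 of 9, all but Pax4 (highest value 3.45) and Pax8 (3.41), against 5.35%. Pax9 passed this threshold narrowly with 3.51. The peak over the 5′ end met the q-value threshold in 7 of 9 members, all but Pax1 and Pax8, against 36.5% of the 975 protein-coding genes with a peak over the 5′ end. It met the threshold on fold enrichment in 6 of 9, all but Pax1, Pax4 and Pax8, against 32.1% of the same 975. The background level that follows from pileup and fold enrichment, after 1 is added to both, was 2.67 to 3.004 fragments across the 54 peaks with a median of 2.79, beside a genome-wide input level of 2.67.

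**Figure D3:**
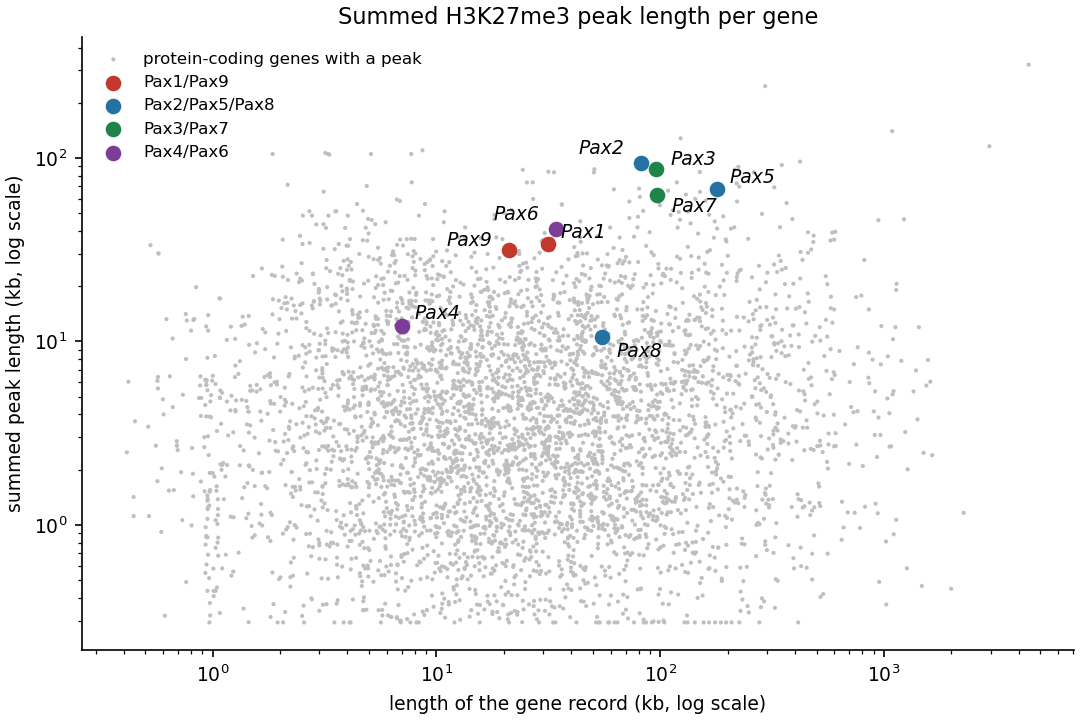
Summed peak length against the length of the gene record, both in kb on log axes, for the 9 Pax genes (coloured by subfamily) and for all protein-coding genes with a peak (grey). All 9 Pax genes lie above the median of 3.75 kb over the grey points, from 10.6 kb at Pax8 to 94.1 kb at Pax2.

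Pax1 and Pax9 were then set against the other 7 members, the neural, muscle, kidney and pancreas genes. The mean summed length was 32.6 kb for Pax1 and Pax9 and 53.6 kb for the other 7, a ratio of 0.608. The other 7 ranged from 10.6 to 94.1 kb, so Pax1 and Pax9 lay within their range, at ranks 6 and 7 of the 9. Relative to the length of the gene with 5 kb on each side the order turned round, with 914 and 656 bp of peak per kb, a ratio of 1.39. Pax1 had 817 and Pax9 1011 bp per kb, and the other 7 ran from 163 at Pax8 to 1021 at Pax2. The share of the gene body under peaks was 70.6% and 66.7% in Pax1 and Pax9 and 15.1 to 85.4% in the other 7.

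The height of the mark differed little between Pax1 and Pax9 and the rest. The pileup averaged over each gene's peaks by length was 12.53 at Pax1 and 12.39 at Pax9, with a mean of 12.46, and it ran from 12.09 at Pax8 to 13.16 at Pax2 in the other 7, with a mean of 12.56. The ratio of the means was 0.992, and a plain mean over the peaks of each gene gave 1.01. With fold enrichment the means were 3.495 for Pax1 and Pax9 and 3.503 for the other 7. On the deposited records the 2 sclerotome genes fell inside the span of the other members in length, coverage and height. On the RefSeq genes the coverage of Pax1, 90.4%, was above that of every other member, the next being Pax2 with 86.9%, and that of Pax9 was 66.8%. These 9 genes of 1 library are not replicates, and the list gives no interval for these ratios.

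Among the summed lengths of all 4987 symbols, Pax2 ranked 17, Pax3 20, Pax5 41, Pax7 47, Pax6 127, Pax1 178, Pax9 199, Pax4 915 and Pax8 1064. The median protein-coding gene with a peak had 3.75 kb in 2 peaks. In neighbouring places of this order Pax2 and Pax3 differed by 7.23 kb, Pax5 and Pax7 by 4.74 kb, and Pax1 and Pax9 by 2.40 kb, and with no replicate none of these orders can be called firm.

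**Figure D4:**
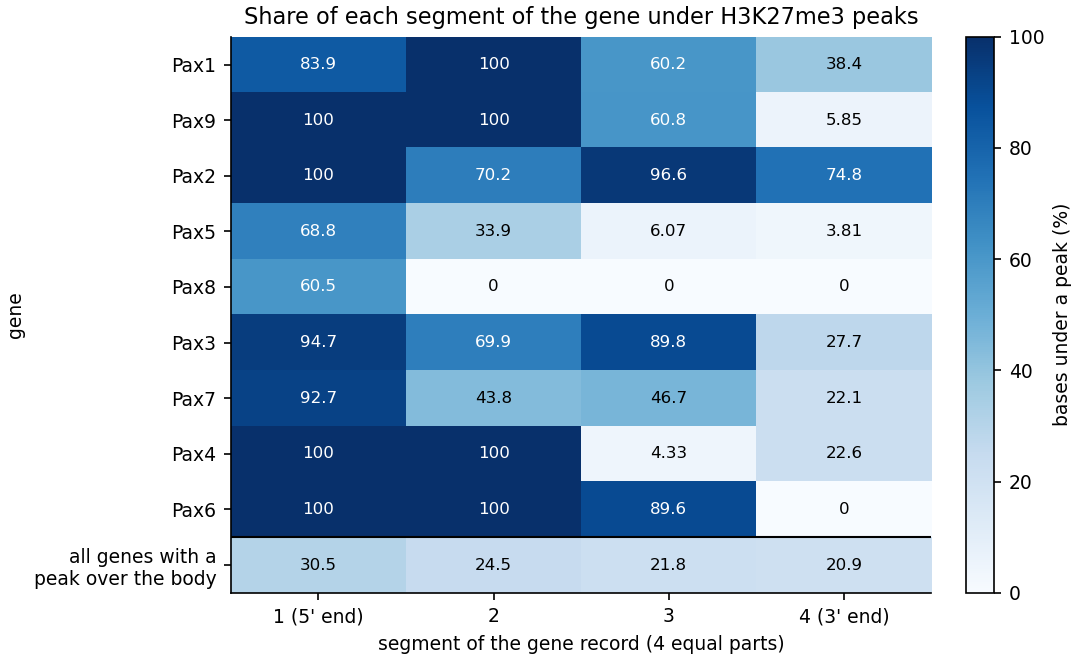
Share of bases under peaks, in percent, for 4 equal segments of the gene record from the 5′ end (1) to the 3′ end (4), for the 9 Pax genes and, in the bottom line, as the mean over all protein-coding genes with a peak over the body. The first column is dark for every Pax gene, from 60.5% at Pax8 to 100%, and the last is pale for all but Pax2.

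Along the deposited gene records the mark lay towards the 5′ end in all 9 members. Each gene record was cut into 4 equal segments, numbered from the 5′ end. The mean share under peaks in the 9 genes was 89.0% in segment 1 and 68.6, 50.5 and 21.7% in segments 2, 3 and 4. In 3113 protein-coding genes with a peak over the body the same means were 30.5, 24.5, 21.8 and 20.9%. More of segment 1 than of segment 4 was covered in 9 of 9 members and in 58.8% of these genes. On the genes of the RefSeq table this was so in 8 of 9, since 79.6% of segment 1 and 100% of segment 4 of the shorter Pax1 gene lay under peaks. The Pax genes thus differed from the mean of these genes by 58.4 percentage points in segment 1 and by 0.787 in segment 4, where the members ranged from 0% at Pax6 and Pax8 to 74.8% at Pax2. All 9 members had a peak over the 5′ end, which was not required of the 3113 genes. The segments were not compared with those of the 975 protein-coding genes that had such a peak.

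Genes that work with Pax genes in their tissues were counted in the same list. Of the chondrocyte genes, which include Col2a1, Acan and Sox9, 0 of 11 had a peak. The upper end of the 95% Wilson interval is 25.9%, beside the 20.7% of all protein-coding genes with a peak. The genes were picked and not drawn at random, so the interval is no test of the list. The count does not check the label of the sample. Genes of the sclerotome were marked in 11 of 16. Uncx had the largest sum, 35.6 kb, and Foxc1 and Foxc2, which encode forkhead factors of somites, had no peak. Of the markers of other cells in a rib preparation, the muscle gene Myod1 had 3 peaks that summed to 8.57 kb. Myf5 and Myf6 each had 1 peak of 0.37 kb that was not over the 5′ end, and Myog had none. The B cell gene Cd79a had none, and the neural genes Neurog2, Olig2 and Sox2 all had a peak. No endothelial (Pecam1, Cdh5) or osteoblast (Sp7, Bglap) marker had a peak.

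In the tissues of the other members marking was frequent. All 13 neural tube genes, all 13 eye genes and all 7 midbrain and hindbrain genes had a peak, with Olig2 (43.6 kb), Six3 (48.9 kb) and Lmx1b (47.8 kb) at the top of their lists. The pancreas list had 12 of 13 marked, with Nkx6-1 at 33.3 kb and Rfx6 at none, and the thyroid list 6 of 7, with Nkx2-1 at 38.8 kb and thyroglobulin (Tg) at none. The muscle list had 10 of 12, with Lbx1 at 32.0 kb, and the kidney list 12 of 15, led by Hoxd11 with 48.5 kb, while Eya1 and Ret had none.

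The B cell list (8 of 12) and the neural crest list (7 of 12) had the lowest shares after the chondrocyte list. Ikzf3, a lymphoid zinc finger factor, had 61.4 kb and Ebf1 none. Zic1 had 73.7 kb and Tfap2a 46.3 kb, and Sox10 and Snai1 had none. In all, 95 of the 116 genes of the lists other than the chondrocyte list had a peak (81.9%), beside 20.7% of protein-coding genes. A peak over the 5′ end, beside 4.45% of protein-coding genes, was found at 9 of 13 neural tube, 5 of 7 midbrain and hindbrain, 8 of 13 eye, 8 of 15 kidney, 6 of 13 pancreas, 3 of 7 thyroid, 5 of 12 neural crest, 4 of 12 muscle, 4 of 16 sclerotome, 3 of 12 B cell and 0 of 11 chondrocyte genes.

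**Figure D5:**
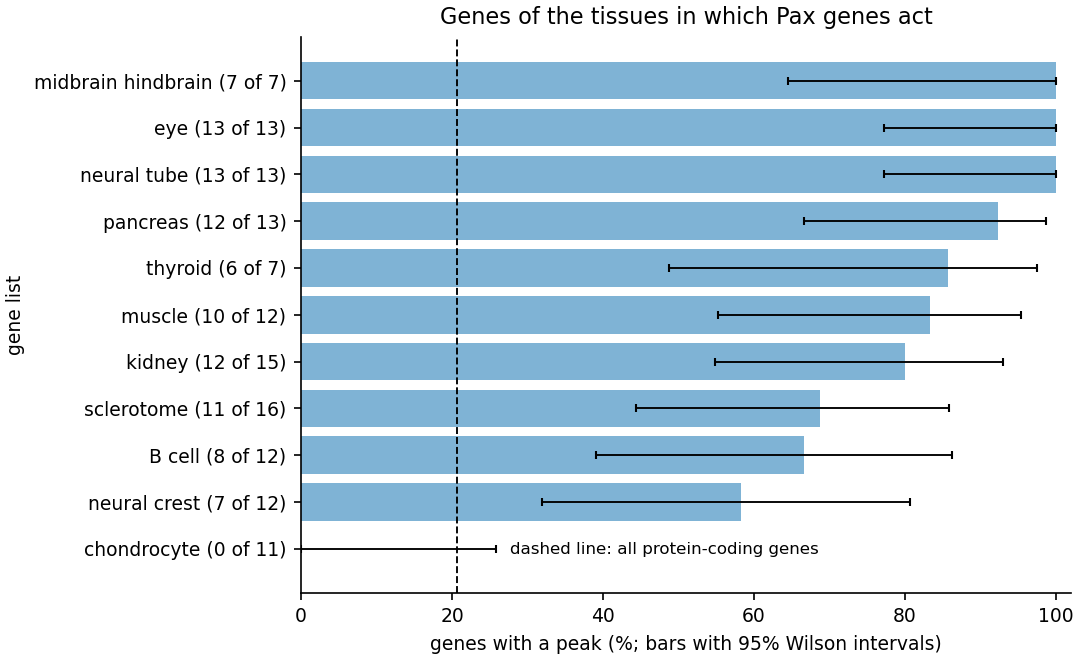
Percentage of the genes in each list that had a peak, with 95% Wilson intervals that cover counting error only, and a dashed line at the 20.7% of all protein-coding genes. The genes of the lists were picked, so the intervals are no test against this line. The lists run from 0 of 11 chondrocyte genes to all of the midbrain and hindbrain, eye and neural tube genes.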

How the data were processed

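Per the file headers, the authors called broad peaks with MACS 2.1.0.20140616 from 17237574 filtered ChIP tags and 17004082 filtered input tags, with an effective genome size of 1.87 Gb, a fragment length of 294 bp and a q-value cutoff of 0.05. The submitters' processing notes name CASAVA 1.8.4, Bowtie2 and mm10, which is GRCm38. Per peak the authors deposited a pileup (coverage signal), a fold enrichment (ratio to input), −log10 p-values and q-values averaged over the peak, and the length. The mean q-value exceeded 0.05 in 15 of the 54 Pax peaks, and why was not tested. Read counts per peak were not used here, so pileups carry no counting interval. A second deposited table joined peaks to gene records within 5 kb with a tool not given in the sources used here, and symbols joined by a semicolon were split. Of 4987 symbols, 4929 matched the RefSeq table of GRCm38.p6 by symbol or unique synonym. That table holds no exons.

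The Pax genes and gene lists were chosen with earlier results of these data known. Named genes were the 9 members, neighbours that share a peak or, within 100 kb, are transcription factor, micro-RNA or antisense genes, and at most 4 genes per list (the 2 with the largest summed length and the first ones without a peak, some of which are not reported here); the other markers named were those of the cell type check, and non-coding RNAs such as Paupar were named after their values were seen. Interval arithmetic was run in pandas 2.3.3 and numpy 2.4.6 and checked on simulated intervals. No test was run, and no column of samples outside the series was used.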

Additional observations from a re-analysis of the deposited data

How the results depend on the processing

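Each of the 6 summary values was recomputed under 50 combinations of value and alternative. A value within 1.5 times the reported one, on the same side of 1 for a ratio, was taken as unchanged, and 46 of the 50 were. The share of the 9 gene bodies under peaks was 51.6% and dropped to 33.0% when the averaged q-value had to be 0.01 or lower and to 31.6% when the fold enrichment had to be 3.5 or higher, where fewer peaks enter by construction. The ratio of summed length of Pax1 and Pax9 to that of the other 7 was below 1 in 11 of 12 alternatives, from 0.519, and rose to 1.39 per kb of gene and flanks. The ratio of pileups stayed between 0.966 and 1.01 in all alternatives, and 1.01, from an unweighted mean over peaks, lay on the other side of 1. The count of covered 5′ ends was 9 and became 7 under that q-value limit and 6 under that limit on fold enrichment. With the starts of the RefSeq promoter table, an alternative added after seeing the data, 6 of the 7 members with an entry had every start under a peak. The summed length of 440.5 kb ranged from 295.3 kb (fold enrichment of at least 3.5) to 615.6 kb (peaks within 50 kb). No paired analysis was possible because there was 1 library per group, and leaving out a replicate was not possible for the same reason. No peak of the list had a pileup under 9.86, so a weaker mark would not appear in it. Whether depth or the cutoff of the peak calling sets this lowest value was not tested.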

Other observations

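Beyond the 5 kb that the annotation reached, the flanks of the Pax genes differed. Joined over gaps of up to 2 kb, the run of peaks at the 5′ end measured 72.0 kb at Pax3, 70.8 kb at Pax5, 57.1 kb at Pax7, 48.4 kb at Pax6, 41.6 kb at Pax9, 31.9 kb at Pax1, 14.1 kb at Pax4 and 8.89 kb at Pax8, beside 196.9 kb at Pax2. These runs began 33.1 kb upstream of Pax3, 40.3 kb upstream of Pax5, 25.2 kb upstream of Pax7 and 23.6 kb upstream of Pax6, against 2.31 kb at Pax8.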
